A study of Mus musculus with 7 samples.

Results

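The macrophage genes described here are 36 genes that mark macrophages or serve their functions, out of 32285 genes counted in mouse utricle explants. They form a named list that was chosen by the difference in read counts between Gent+Fos OE and Gent, already known from these libraries, so their values in that difference are a description and carry no test. All 36 were found in the files, and all 36 were among the 17155 genes that passed the filter on low counts. They were split by role into 20 stable identity genes, 6 resident and scavenger genes and 10 activation-dependent genes. The utricle is a balance organ of the inner ear, and the study asked what Fos, a subunit of the transcription factor AP-1, does in it after its sensory hair cells are damaged. Utricles of wild-type mice at postnatal day 2 were cultured as explants, and all 7 libraries came from explants injured with 2 mM gentamicin, an antibiotic that kills hair cells, for 24 h and collected on day 5 after injury. The 4 Gent+Fos OE libraries came from explants that also received Fos in an adeno-associated virus (AAV-PHP.eB) under the CMV promoter, which is active in many cell types, for 48 h. For the 3 Gent libraries the labels name gentamicin alone, and whether those explants received a virus, and which one, is not settled. The labels call them controls, while the deposited names of their count tables carry the letters sh, and the study also used a virus with a short hairpin RNA against Fos. What Gent stands for in every comparison is limited by this. Each library pooled 12 utricles, so animals cannot be compared, and the study's methods state 3 replicates per condition where the labels list 4 and 3.

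Macrophages are phagocytes that live in most tissues, the inner ear included, where they clear dead cells and debris after injury. They depend on the growth factor receptor CSF1R and on the transcription factor PU.1, encoded by Spi1. They tag and bind targets through complement C1q and Fc receptors, digest them in lysosomes, and switch on receptors, oxidase and cytokines when activated. Defining macrophage markers, themselves members of the list, were detected in every library, with no limit set beforehand. Adgre1, which encodes the F4/80 antigen, lay between 282 and 825 CPM over the 7 libraries, where CPM is a gene's read count scaled to a common library size. Spi1 lay between 26.5 and 103 CPM, and Csf1r lay between 105 and 258 CPM.

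Library totals ran from 27879889 to 34335214 counts. Fos itself lay between 149 and 167 CPM in Gent+Fos OE and between 34.6 and 40.6 CPM in Gent. One library, Gent replicate 2, stood apart by gene length. The rank correlation across genes of its deviation from the mean of all libraries with exonic length was -0.50. In the other 6 libraries it was -0.22 to 0.33. These deviations include the difference between the groups. Among all genes, 48 were called lower in Gent+Fos OE and 23 were called higher, or 0.414% in either direction, by edgeR's quasi-likelihood test. A call needed an adjusted p (Benjamini-Hochberg) below 0.01 together with a log2 fold change beyond 0.25 in size.

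Levels are compared between genes per length, as RPKM, which is CPM divided by exonic length in kilobases. In Gent, Lyz2, which encodes the lysozyme that macrophages secrete against bacteria, was the highest at 2979 ± 599 RPKM (SD, n = 3). Apoe, a lipid carrier, followed at 1210 ± 332 RPKM, and the 3 Gent libraries of these genes did not overlap. C1qb and C1qa, which encode chains of the complement starter C1q, came next at 249 ± 69.5 and 230 ± 50.8 RPKM, and their libraries overlapped with each other and with those of Adgre1 at 221 ± 30.0 RPKM. At the low end stood Ptprc, the leukocyte phosphatase CD45, at 3.35 ± 1.46 RPKM, the hemoglobin scavenger receptor Cd163 at 1.26 ± 0.585 RPKM, and Lyve1, a hyaluronan receptor of some perivascular macrophages, at 0.335 ± 0.0613 RPKM.

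The order differed between the groups in the middle of the range. Gpnmb, a glycoprotein of lysosomal membranes, had rank 8 in Gent at 163 ± 21.8 RPKM and rank 3 in Gent+Fos OE at 165 ± 26.5 RPKM (n = 4). Lgals3, which encodes galectin-3, moved from rank 10 to rank 4 at 143 ± 33.0 and 142 ± 8.84 RPKM. C1qb went the other way, from rank 3 to rank 7, at 249 ± 69.5 and 134 ± 22.5 RPKM. In Gent+Fos OE, the libraries of Gpnmb and C1qb overlapped, so the order of these neighbours lay within their spread.

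**Figure D1:**
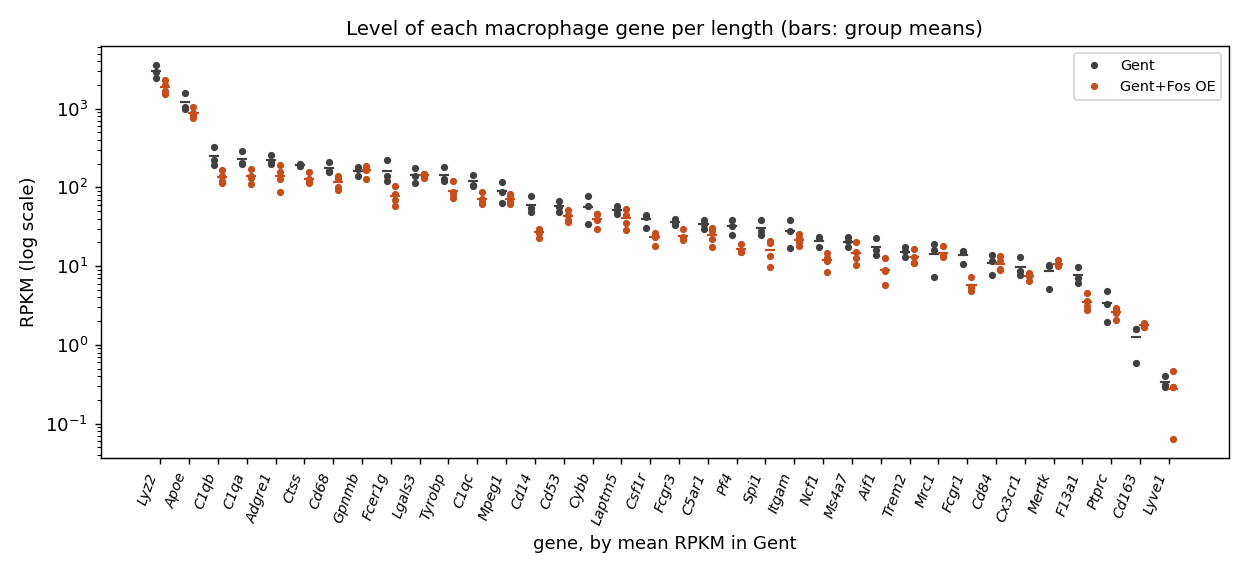
Level of each of the 36 macrophage genes in RPKM on a log axis, ordered by the mean in Gent. Each point is a library and each bar a group mean, with Gent in dark grey (n = 3) and Gent+Fos OE in orange (n = 4). Lyz2 and Apoe stand highest in both groups, and Lyve1 stands lowest.

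Many macrophage genes carry a binding motif of PU.1 close to their start. RefSeq promoter windows of GRCm38.p6 were at hand for 29 of the 36 genes, and the 250 bases before the start were searched on both strands. The PU.1 letters GAGGAAG stood in 9 of 29 genes (31%) and in 12% of the 27025 genes with a window. The 9 genes were C1qc, F13a1, Fcgr1, Fcgr3, Itgam, Laptm5, Mrc1, Pf4 and Trem2. Letters of the interferon response element, GAAA, any 2 bases and GAAA, stood in 4 of 29 genes (13.8%, Aif1, Ctss, Cybb and Ncf1) and in 3.46% of all genes with a window. The AP-1 letters TGACTCA, to which Fos and Jun proteins bind, stood in 2 of 29 genes (6.9%, Cd68 and Cd84) and in 5.16% of all genes with a window. The letters TGACGTCA and CACGTG stood in 0 of 29 genes, against 1.77% and 6.86% of all genes with a window. No macrophage gene held the letters of more than 1 of these motifs. A match is a description of letters and not a binding site.

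To show where these letters lie, the 250 bases before the start are printed for 4 genes with the PU.1 letters, of which Fcgr1, F13a1 and Pf4 were among the genes furthest below Gent and Trem2 was not. Capitals mark GAGGAAG or its reverse complement CTTCCTC. The sequences run 5′ to 3′ on the gene's strand, from RefSeq, GRCm38.p6, and of the 2 windows listed for F13a1 the first is shown, since the second holds 0 matches.

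Fcgr1, chr3:96293970-96294219, strand minus: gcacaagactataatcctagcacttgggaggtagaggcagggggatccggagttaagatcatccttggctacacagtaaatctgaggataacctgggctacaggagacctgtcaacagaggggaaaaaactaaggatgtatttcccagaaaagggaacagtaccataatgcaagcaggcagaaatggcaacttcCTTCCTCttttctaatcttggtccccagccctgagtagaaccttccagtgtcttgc

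F13a1, chr13:37050245-37050494, strand minus: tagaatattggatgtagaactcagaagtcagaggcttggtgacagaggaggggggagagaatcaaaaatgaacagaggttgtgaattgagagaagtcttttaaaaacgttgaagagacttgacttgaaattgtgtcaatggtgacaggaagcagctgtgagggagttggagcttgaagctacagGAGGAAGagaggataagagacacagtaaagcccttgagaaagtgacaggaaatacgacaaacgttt

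Pf4, chr5:90772185-90772434, strand plus: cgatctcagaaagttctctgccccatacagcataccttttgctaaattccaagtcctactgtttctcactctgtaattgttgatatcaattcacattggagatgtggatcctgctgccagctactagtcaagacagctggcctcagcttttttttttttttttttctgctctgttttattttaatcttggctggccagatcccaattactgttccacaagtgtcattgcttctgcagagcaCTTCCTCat

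Trem2, chr17:48346151-48346400, strand plus: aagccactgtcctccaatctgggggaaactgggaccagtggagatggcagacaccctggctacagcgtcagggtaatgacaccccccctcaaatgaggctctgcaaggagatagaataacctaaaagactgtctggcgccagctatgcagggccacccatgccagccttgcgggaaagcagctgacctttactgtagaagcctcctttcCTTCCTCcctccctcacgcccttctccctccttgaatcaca

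For the interferon response element, the windows of the protease gene Ctss and the oxidase gene Ncf1 are shown, with the matching letters in capitals.

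Ctss, chr3:95526536-95526785, strand plus: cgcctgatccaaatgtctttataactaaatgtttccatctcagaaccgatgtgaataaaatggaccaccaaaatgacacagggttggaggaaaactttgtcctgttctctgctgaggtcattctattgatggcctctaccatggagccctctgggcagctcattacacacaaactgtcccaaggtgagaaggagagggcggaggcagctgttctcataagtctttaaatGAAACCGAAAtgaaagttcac

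Ncf1, chr5:134229626-134229875, strand minus: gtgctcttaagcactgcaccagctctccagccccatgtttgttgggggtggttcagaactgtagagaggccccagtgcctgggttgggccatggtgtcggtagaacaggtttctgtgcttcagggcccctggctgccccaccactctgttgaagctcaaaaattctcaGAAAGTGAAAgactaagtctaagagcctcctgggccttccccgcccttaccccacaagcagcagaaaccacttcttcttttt

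The capitals ended 49 bases before the start in Fcgr1, 59 in F13a1, 2 in Pf4, 34 in Trem2, 11 in Ctss and 72 in Ncf1. Among the 9 genes with the PU.1 letters, the log2 fold change of Gent+Fos OE over Gent ran from -1.25 (Fcgr1) to 0.05 (Mrc1). Among the 4 genes with the interferon letters it ran from -0.97 (Aif1) to -0.49 (Cybb). The genes with the AP-1 letters had values of -0.62 (Cd68) and -0.04 (Cd84).

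Summed over the whole list, macrophage transcripts stood lower with Fos. The 36 genes came to 9224, 7395, 7900 and 10599 CPM in Gent+Fos OE and reached 12285, 13946 and 11010 CPM in Gent, and the groups did not overlap. Their share of all counts ran from 0.752 to 1.07% with Fos and from 1.11 to 1.36% without. Lyz2, Apoe and Gpnmb, at means of 3921, 2588 and 1063 CPM in Gent, weigh most in the sum and the share. The log2 fold change was negative for 32 genes and positive for 4, with a median of -0.53, a lowest value of -1.25 (Fcgr1) and a highest of 0.50 (Cd163). The median of all genes tested was 0.00, and 8592 of them were negative. In pooled tissue, fewer macrophages and less RNA of these genes per macrophage cannot be told apart.

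The count of calls depended on the tool and the libraries. In the edgeR fit 2 of the 36 genes, Cd14 and Fcgr1, were called lower, beside 0.28% of all genes, and 0 were called higher, beside 0.134%. DESeq2 called 12 lower, beside 1.56% of the 20975 genes it tested, and 0 higher, beside 1.3%. These 12 were Csf1r, Fcer1g, Aif1, Ctss, C1qa, C1qb, C1qc, Pf4, F13a1, Cd14, Fcgr1 and Ncf1. With the same limit on the fold change, 5 were lower at an adjusted edgeR p under 0.05 (1.19% of all genes), and at an unadjusted p under 0.05 there were 22 lower (13.4%) and 0 higher (11.1%). The libraries of the groups did not overlap for 17 of the 36 genes on the lower side (12.2% of all genes) and for 1 on the higher side (11.3%). Since the genes were chosen with this contrast known, these shares are set side by side and nothing is read from them. Leaving out any 1 of the 4 Gent+Fos OE libraries, or Gent replicate 3, left 0 macrophage genes called, while the calls among all genes fell from 48 lower to between 3 and 15. Without Gent replicate 2 the calls were again Cd14 and Fcgr1, beside 0.531% of all genes called lower.

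**Figure D2:**
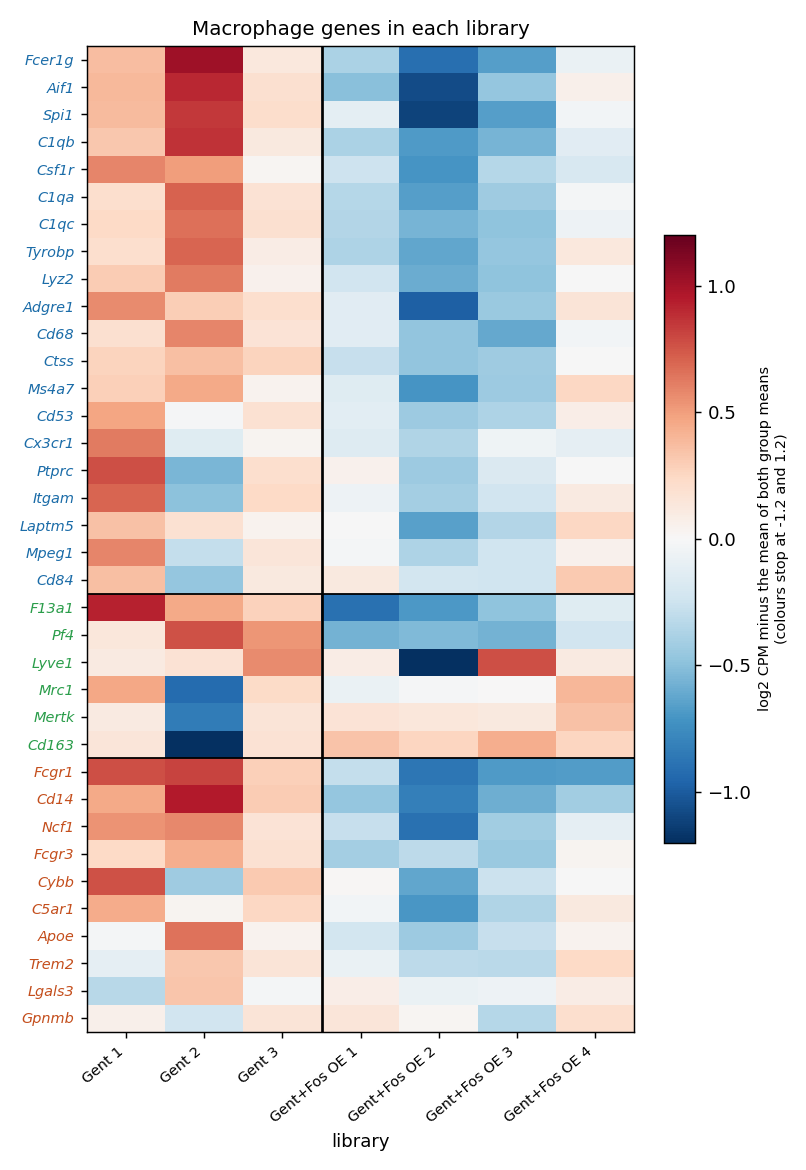
Level of each macrophage gene (rows) in each library (columns) as log2 CPM minus the mean of both group means, with colours stopping at -1.2 and 1.2. Gene names are blue for stable identity, green for resident and scavenger, and orange for activation-dependent genes. Most rows are red in Gent and blue in Gent+Fos OE, and Mrc1, Mertk and Cd163 are blue in Gent replicate 2.

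Stable identity genes all lay on the lower side: 20 of 20 had a negative log2 fold change, with a median of -0.64, from -1.03 (Fcer1g) to -0.04 (Cd84), and 11 of 20 had groups that did not overlap, beside 12.2% of all genes on the lower side. The growth factor receptor and the lineage factor were among them. Csf1r, the receptor for CSF1 and IL-34, read 145, 105, 136 and 150 CPM in Gent+Fos OE and 258, 244 and 175 CPM in Gent, a log2 fold change of -0.75 ± 0.17 (SE). Every Gent library lay above every Gent+Fos OE library. Csf1r shares 15.1% of its exonic bases with Hmgxb3, and reads there were not counted. Spi1 read 52.9, 26.5, 36.3 and 56.0 CPM against 74.4, 103 and 66.5 CPM, a log2 fold change of -0.92 ± 0.25.

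The complement genes C1qa, C1qb and C1qc lie side by side on the minus strand of chromosome 4 (mm10, chr4:136880129-136886187 for C1qb), and their 3 chains form 1 protein. C1qb read 150, 122, 133 and 178 CPM in Gent+Fos OE and 244, 356 and 212 CPM in Gent, a log2 fold change of -0.89 ± 0.19. C1qa and C1qc each came to -0.73, with SE of 0.18 and 0.16. In all 3 genes the groups did not overlap, and Gent replicate 2 was the highest library.

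The signalling adaptors stood lower as well. Fcer1g, the chain through which Fc receptors signal, read 72.9, 50.8, 60.2 and 89.9 CPM against 123, 193 and 104 CPM, a log2 fold change of -1.03 ± 0.23. Tyrobp, the adaptor DAP12 of TREM2, came to -0.66 ± 0.20 with overlapping groups, since Gent+Fos OE replicate 4 at 81.3 CPM exceeded Gent replicate 3 at 79.2 CPM. Both genes are short, at 874 and 667 exonic bases.

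Lysosomal and antibacterial genes included Lyz2, the most abundant of the 36. It lies on chromosome 10 (mm10, chr10:117277331-117282321, minus strand) and read 2635, 2040, 2208 and 3079 CPM in Gent+Fos OE and 3813, 4756 and 3192 CPM in Gent, a log2 fold change of -0.65 ± 0.18. The gap between the groups was narrow, as the lowest Gent library was 1.04 times the highest Gent+Fos OE library. Lyz2 has the close paralog Lyz1, reads that map to both were not counted, and its level is uncertain for that reason. Ctss, the protease cathepsin S, read 174, 152, 157 and 210 CPM against 253, 271 and 253 CPM, a log2 fold change of -0.58 ± 0.14 with no overlap. Cd68, a lysosomal glycoprotein, came to -0.62 ± 0.17 with no overlap. Laptm5, a lysosomal membrane protein of blood cells, and Mpeg1, a pore-forming protein against bacteria, came to -0.34 ± 0.20 and -0.32 ± 0.19 with overlap. Mpeg1 had -0.52 without Gent replicate 2 and -0.08 without Gent replicate 1, and Laptm5 had -0.21 without Gent+Fos OE replicate 2.

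Among surface molecules, several had Gent replicate 2 far from the other Gent libraries. Adgre1 read 508, 282, 408 and 622 CPM against 825, 682 and 639 CPM, a log2 fold change of -0.65 ± 0.23 with no overlap. Ptprc read 53.8, 38.3, 45.9 and 51.7 CPM against 88.9, 35.5 and 59.6 CPM, a log2 fold change of -0.37 ± 0.25. Here Gent replicate 2 was the lowest of all 7 libraries, and Gent replicate 1 the highest. The log2 fold change was -0.65 without Gent replicate 2 and -0.01 without Gent replicate 1. Itgam, the integrin chain CD11b, had -0.37 ± 0.24, and this was -0.63 without Gent replicate 2 and -0.06 without Gent replicate 1. Cx3cr1, the fractalkine receptor, had -0.38 ± 0.18, with -0.53 and -0.11 on leaving out the same libraries, so the size of these values rested on which Gent libraries were used.

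The 4 identity genes left are the tetraspanin Cd53 (-0.43 ± 0.16), the actin-binding Aif1 or IBA1 (-0.97 ± 0.25), the membrane protein Ms4a7 (-0.49 ± 0.21) and the adhesion receptor Cd84 (-0.04 ± 0.20). Aif1 read 13.3, 8.91, 13.6 and 19.6 CPM against 24.7, 35.2 and 21.5 CPM and did not overlap. Cd84 was the only identity gene whose sign changed between fits, being negative in 12 of 16.

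**Figure D3:**
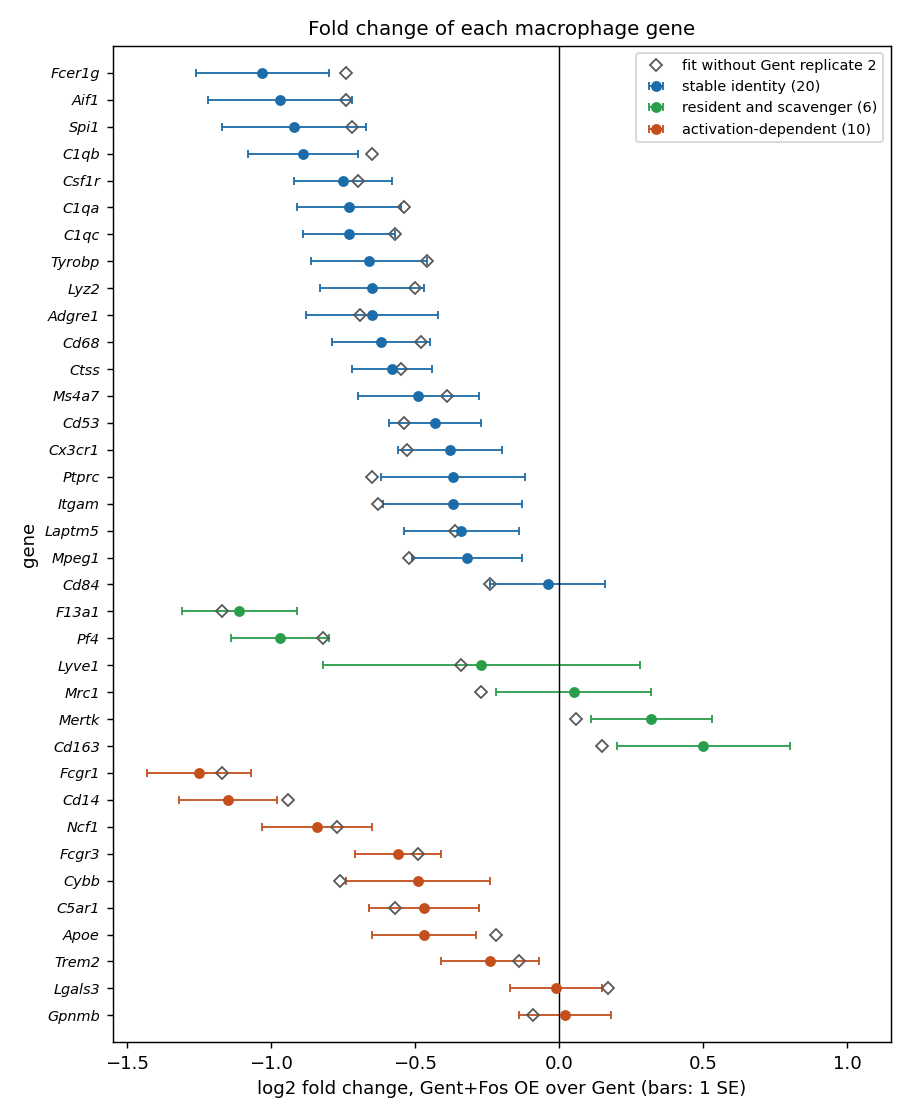
Log2 fold change of Gent+Fos OE over Gent for each macrophage gene, with bars of 1 SE, coloured by list. Open diamonds give the value without Gent replicate 2. All 20 identity genes lie left of 0, and the diamonds of Mrc1, Mertk and Cd163 lie left of their points.

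Resident and scavenger genes did not move together. The median log2 fold change of the 6 genes was -0.11, with 3 negative and 3 positive, and the values ran from -1.11 to 0.50. The median was 0.07 without Gent+Fos OE replicate 2, 0.02 without Gent replicate 3 and -0.30 without Gent replicate 2. F13a1, the A chain of coagulation factor XIII, read 18.5, 21.3, 24.6 and 31.0 CPM in Gent+Fos OE and 65.3, 47.1 and 41.6 CPM in Gent. Its log2 fold change was -1.11 ± 0.20, the groups did not overlap, and the lowest Gent library was 1.34 times the highest Gent+Fos OE library. Pf4, the chemokine platelet factor 4, read 11, 11.3, 11 and 13.9 CPM against 17.9, 27.8 and 23.5 CPM, a log2 fold change of -0.97 ± 0.17 with no overlap.

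The scavenger and clearance receptors had values near or above Gent. Mrc1, the mannose receptor CD206, read 83.2, 87.0, 88.1 and 116 CPM against 121, 46.5 and 103 CPM, a log2 fold change of 0.05 ± 0.27. Cd163 read 9.87, 9.28, 10.5 and 9.27 CPM against 8.62, 3.17 and 8.78 CPM, a log2 fold change of 0.50 ± 0.30. Mertk, a receptor for dying cells, read 45.2, 44.4, 43.9 and 51.5 CPM against 43.6, 22.5 and 44.9 CPM, a log2 fold change of 0.32 ± 0.21. In all 3 genes Gent replicate 2 was the lowest of the 7 libraries. Without it the log2 fold changes were -0.27 for Mrc1, 0.15 for Cd163 and 0.06 for Mertk. Lyve1 lay between 0.184 and 1.36 CPM, and its log2 fold change of -0.27 was smaller than its SE of 0.55.

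Activation-dependent genes ranged from the farthest below Gent of all 36 to no difference. Fcgr1 (mm10, chr3:96282909-96293969, minus strand), the high-affinity IgG receptor CD64, read 18.7, 12.5, 14.2 and 14.3 CPM in Gent+Fos OE and 38.8, 39.8 and 27.8 CPM in Gent. Its log2 fold change was -1.25 ± 0.18, or 2.38-fold lower. Cd14, the co-receptor for bacterial lipopolysaccharide, read 49.9, 39.1, 46.0 and 51.7 CPM against 94.2, 133 and 84.9 CPM, a log2 fold change of -1.15 ± 0.17, or 2.23-fold lower. In these genes the gap was the widest of the list, as the lowest Gent library was 1.49 and 1.64 times the highest Gent+Fos OE library.

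Fcgr3, a lower-affinity IgG receptor, read 38.3, 41.1, 37.4 and 52.0 CPM against 60.2, 69.0 and 57.7 CPM, a log2 fold change of -0.56 ± 0.15 with no overlap. It is similar in sequence to Fcgr2b and Fcgr4, and reads that map to several of them were not counted. Ncf1, the organizer subunit p47phox of the phagocyte oxidase, read 47.0, 30.6, 42.7 and 53.0 CPM against 83.2, 85.0 and 63.8 CPM, a log2 fold change of -0.84 ± 0.19 with no overlap. Ncf1 shares 11.1% of its exonic bases with Gtf2ird2. Cybb, the catalytic subunit of that oxidase, came to -0.49 ± 0.25 with overlap, to -0.76 without Gent replicate 2 and to -0.19 without Gent replicate 1. The complement receptor gene C5ar1 came to -0.47 ± 0.19 with overlap.

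The other activation-dependent genes are Apoe, Gpnmb, Lgals3 and Trem2. Apoe (mm10, chr7:19696109-19699188, minus strand) read 1866, 1605, 1793 and 2230 CPM against 2130, 3404 and 2229 CPM, a log2 fold change of -0.47 ± 0.18, and without Gent replicate 2 it was -0.22. Gpnmb read 1174, 1076, 835 and 1224 CPM against 1106, 905 and 1179 CPM, a log2 fold change of 0.02 ± 0.16. Lgals3 came to -0.01 ± 0.16 and Trem2, a lipid-sensing receptor that signals through Tyrobp, to -0.24 ± 0.17, both with overlap. Without Gent replicate 2 the values were -0.09 for Gpnmb, 0.17 for Lgals3 and -0.14 for Trem2. Apoe, Gpnmb and Lgals3 are made by other cells too, and Gpnmb is also a melanocyte gene. All 9 melanocyte genes tested had negative log2 fold changes, with a median of -1.40, and they summed to 52.2 to 57.6 CPM in Gent+Fos OE and 105 to 138 CPM in Gent. The part of other cell types in these values was not tested.

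Setting the lists beside each other, the median log2 fold change of identity genes was 0.16 below that of activation-dependent genes (-0.64 and -0.48). Library means were set side by side for each list. Per library, the mean centred log2 CPM of identity genes was -0.19, -0.62, -0.41 and 0.04 in Gent+Fos OE and 0.41, 0.34 and 0.14 in Gent. For activation-dependent genes it was -0.15, -0.50, -0.38 and -0.05 against 0.28, 0.34 and 0.18. For resident and scavenger genes it was -0.16, -0.44, 0.03 and 0.12 against 0.31, -0.28 and 0.31, which overlapped. Without Gent replicate 2 the difference between the identity and activation medians was -0.02, and with a narrower identity list of 10 genes it was -0.06, so it lay within the choices made.

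**Figure D4:**
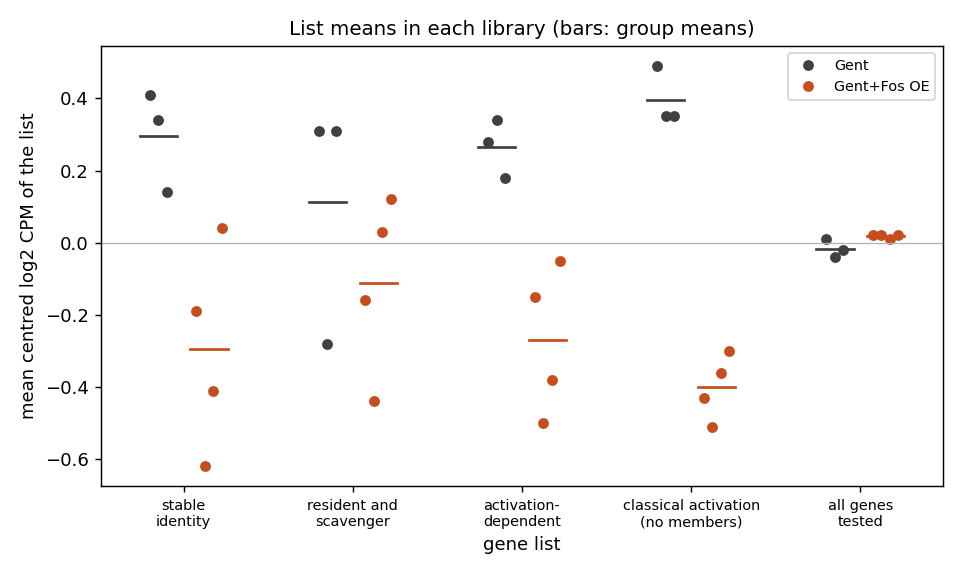
Mean centred log2 CPM of the genes of a list in each library, with Gent in dark grey (n = 3) and Gent+Fos OE in orange (n = 4), and bars at group means. Identity and activation-dependent genes do not overlap between the groups, resident and scavenger genes do, classical activation genes outside the 36 do not, and all genes tested lie near 0.

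A closer view took each gene relative to the mean log2 CPM of the 20 identity genes in the same library, which removes what the identity genes share. On this scale 8 of the 36 genes were higher in Gent+Fos OE with no overlap, 5 were lower with no overlap and 23 overlapped. Among all genes tested on the same scale 44% were higher and 0.874% lower with no overlap. The scale is set by 20 of the 36 genes, which stood lower in Gent+Fos OE, so a gene with equal CPM in both groups reads as higher. Fcgr1 went from -2.22 ± 0.16 in Gent to -2.88 ± 0.26 in Gent+Fos OE, a difference of -0.65. Cd14 differed by -0.54 and F13a1 by -0.51, and Fcer1g and Ncf1 were the other 2 on the lower side, at -0.42 and -0.26. Without Gent replicate 2, a choice made after seeing the data, Fcgr1 differed by -0.58, Cd14 by -0.37, F13a1 by -0.58, Fcer1g by -0.19 and Ncf1 by -0.21.

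On the higher side stood Cd163 at 1.23, Mertk at 0.98, Mrc1 at 0.74, Gpnmb at 0.60, Lgals3 at 0.60, Cd84 at 0.58, Trem2 at 0.35 and Laptm5 at 0.21. Leaving out a library cannot add overlap, so these 8 necessarily stayed higher with no overlap without Gent replicate 2. In that setting 11 macrophage genes stood on the higher side with no overlap, and several of the 8 differences were smaller. The difference was then 0.73 for Cd163, 0.63 for Mertk, 0.30 for Mrc1 and 0.32 for Cd84, while Gpnmb had 0.47, Lgals3 0.75, Trem2 0.42 and Laptm5 0.19. Gpnmb went from 2.69 ± 0.29 in Gent to 3.29 ± 0.25 in Gent+Fos OE. Lgals3 went from 0.68 ± 0.39 to 1.28 ± 0.20. These values use the same contrast as the choice of genes and are a description only.

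The macrophage genes also varied together among libraries of 1 group, which the choice of genes did not use. Within Gent+Fos OE, replicate 4 was the highest library for 30 of 36 genes (83.3%), against 27.8% of all genes tested. Replicate 2 was the lowest for 26 of 36 (72.2%), against 27% of all genes tested. Among identity genes, replicate 4 was the highest for 18 of 20 and replicate 2 the lowest for 18 of 20. The genes share libraries and are not independent of each other, so no p is given. Between these libraries Adgre1 ranged from 282 to 622 CPM and Spi1 from 26.5 to 56.0 CPM, in each case with replicate 2 lowest and replicate 4 highest. Other tissue markers differed between the same libraries: supporting cell genes summed to 3177 CPM in replicate 2 and 2453 CPM in replicate 4, and mesenchymal genes to 6807 and 10208 CPM. Their part in the spread was not tested.

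Within Gent, no library was the highest throughout. Replicate 2 was the highest for 19 of 36 genes and the lowest for 12, and the side differed with length. Of the 22 macrophage genes shorter than the median gene tested (4084 exonic bases), 17 were higher in replicate 2 than in the mean of the other Gent libraries, with a median difference of 0.44 on the log2 scale. Of the 14 longer genes 3 were higher, with a median of -0.68. The extremes were Fcer1g at 0.77 and Cd163 at -1.44, and Spearman's rho with length over the 36 genes was -0.76, a description of genes that share a library. Among all genes tested, 5943 of 8577 shorter and 2792 of 8578 longer genes were higher in replicate 2. The median log2 fold change between the groups was -0.66 for the shorter and -0.35 for the longer macrophage genes, and -0.59 and -0.37 after each library's trend with length was removed. Over all genes tested it was -0.17 for the shorter and 0.13 for the longer genes.

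**Figure D5:**
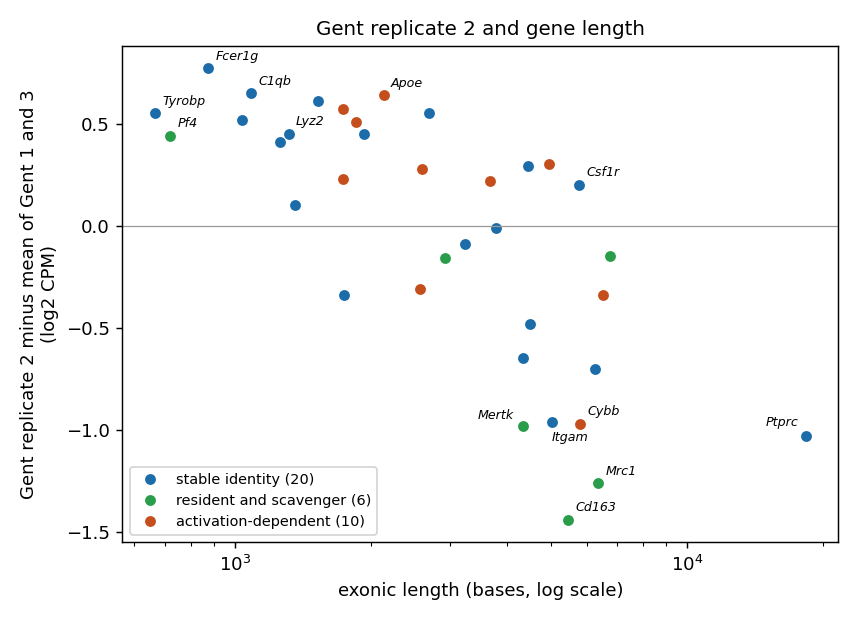
Difference between Gent replicate 2 and the mean of Gent replicates 1 and 3 in log2 CPM against exonic length in bases on a log axis, for the 36 macrophage genes, coloured by list. Short genes such as Fcer1g, at 0.77, lie above 0, and long genes such as Mrc1, Cd163 and Ptprc, at -1.26, -1.44 and -1.03, lie below it.

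Macrophage pathway genes outside the 36 were taken from fixed lists, and tests are given for them. These lists too were chosen with results of the same libraries known, so the p-values are not independent evidence of a direction. Among 8 tested ligands of CSF1R and chemoattractants, 1 was called. Ccl12, a chemokine that draws monocytes, read 4.49, 4.72, 5.86 and 6.77 CPM in Gent+Fos OE and 15.7, 17.4 and 15.5 CPM in Gent. It fell by 1.57 ± 0.18 on the log2 scale, or 2.97-fold (edgeR adjusted p = 0.00262, exact permutation p = 0.0286, two-sided, the smallest p possible with 4 against 3 libraries), and it was lower in 4 of 4 libraries. The call was lost at least without Gent+Fos OE replicate 1 or 3 or Gent replicate 3. The receptor's own ligands did not pass the test. Csf1 had a log2 fold change of -0.09 ± 0.14 at 208 ± 27.0 and 221 ± 12.5 CPM, and Il34 of 0.50 ± 0.25 at 5.47 ± 0.486 and 3.86 ± 1.26 CPM. Cxcl12, the most abundant chemokine of the list, had values of 267 ± 70.1 and 535 ± 162 CPM (edgeR adjusted p = 0.0597), and Ccl2 had 165 ± 5.55 and 227 ± 26.7 CPM (edgeR adjusted p = 0.0859).

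Of 16 macrophage transcription factors 0 were called by edgeR and 5 had an unadjusted p under 0.05, all lower, and the median was -0.37. Here and for the lists that follow, such counts stand beside 13.4% of all genes lower and 11.1% higher at that limit. Maf, which helps keep macrophages in their mature state, had a log2 fold change of 0.01 ± 0.19. Irf8, a factor of the myeloid lineage, had -0.58 ± 0.17 at 22.4 ± 4.01 and 33.4 ± 5.03 CPM (edgeR adjusted p = 0.102). The 2 most abundant of the list in Gent were Id3 (109 against 161 CPM, log2 fold change -0.56 ± 0.18) and Maf.

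Partners of Fc receptors and TREM2 showed 0 of 14 calls and 7 with an unadjusted p under 0.05, all lower. All 14 had negative log2 fold changes, with a median of -0.44. Fcgr2b, the inhibitory Fc receptor, read 24.6, 26.6, 27.8 and 32.0 CPM against 50.2, 38.5 and 41.7 CPM (log2 fold change -0.65 ± 0.14, edgeR adjusted p = 0.0496). The kinase gene Syk, which acts below Fcer1g and Tyrobp, had -0.63 ± 0.22 with overlap. The most abundant of the list, Sirpa and Itgb2, had -0.27 ± 0.18 and -0.35 ± 0.18.

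The oxidase to which Cybb and Ncf1 belong has other subunits, and of 6 tested partners 0 were called, 4 had an unadjusted p under 0.05 on the lower side and 1 on the higher side. Rac2 read 93.6, 48.8, 75.2 and 116 CPM against 168, 213 and 146 CPM (log2 fold change -1.08 ± 0.25, edgeR adjusted p = 0.0586). Cyba and Ncf4 had log2 fold changes of -0.73 ± 0.17 and -0.98 ± 0.23, with no overlap. Nox4, an oxidase of non-myeloid cells, had 0.70 ± 0.22.

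Genes of dead cell uptake were spread on either side of 0. Of 17 tested, 0 were called by edgeR, 3 had an unadjusted p under 0.05 lower and 2 higher, close to the 13.4% and 11.1% of all genes, and the median was -0.02. Marco, a scavenger receptor for bacteria, read 289, 143, 264 and 379 CPM against 504, 564 and 432 CPM (log2 fold change -0.90 ± 0.26, edgeR adjusted p = 0.102). Stab1, the most abundant of the list in Gent, read 479 ± 69.0 and 506 ± 122 CPM with a log2 fold change of -0.08 ± 0.18. Of 20 lysosome and lipid genes 0 were called and 7 had an unadjusted p under 0.05, all lower, with a median of -0.19. The most abundant, the cathepsin genes Ctsd and Ctsb, had -0.17 ± 0.12 and -0.21 ± 0.12.

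Classical activation genes had the most negative median of the pathway lists. Of 15 tested, 14 were negative, with a median of -0.91, 0 were called, 7 had an edgeR adjusted p under 0.05 on the lower side, and 12 had an unadjusted p under 0.05 on that side and 1 on the other. The shares of all genes at these limits were 1.19%, 13.4% and 11.1%. Acod1, which makes itaconate in activated macrophages, read 89.2, 59.7, 84.2 and 74.2 CPM against 178, 162 and 133 CPM (log2 fold change -1.04 ± 0.16, edgeR adjusted p = 0.012, lower in 4 of 4 libraries). Ccl3, a chemokine, read 53.3, 34.9, 43.5 and 62.2 CPM against 107, 113 and 97.6 CPM (log2 fold change -1.13 ± 0.18, edgeR adjusted p = 0.0135). Tnf had -1.16 ± 0.21 (edgeR adjusted p = 0.0241), Cxcl2 -1.15 ± 0.18 (edgeR adjusted p = 0.0127) and Tlr4, the receptor that works with Cd14, 0.49 ± 0.20 (edgeR adjusted p = 0.178). Of alternative activation genes, 6 of 13 were tested and 0 were called, with a median of -0.35 and 3 lower at an unadjusted p under 0.05. The most abundant of these, Tgfbi and Il4ra, had -0.43 ± 0.13 and -0.16 ± 0.12.

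Markers of other blood cells were scarce, and some moved with the groups. Of 7 monocyte genes 2 were tested. Plac8 read 0.521, 0.980, 0.507 and 0.713 CPM in Gent+Fos OE and 3.87, 4.81 and 3.70 CPM in Gent. It fell by 2.59 ± 0.31 on the log2 scale (edgeR adjusted p = 0.00316). Like that of Ccl12, this call was lost on leaving out any 1 of the same 3 libraries. Without Gent+Fos OE replicate 2 only 1 gene over all the lists was called lower, so Ccl12 and Plac8 did not both keep their calls there. Ms4a4c had -1.84 ± 0.52. The defining monocyte genes Ly6c2 and Ccr2 were at 0 to 0.214 CPM in Gent+Fos OE and at 0 to 1.57 CPM in Gent. The highest value was that of Ly6c2 in Gent replicate 1, which read 0 and 0.0289 CPM in Gent replicates 2 and 3. The list summed to 1.35 to 2.66 CPM in Gent+Fos OE and to 17.5, 7.37 and 8.38 CPM in Gent replicates 1, 2 and 3. Of 11 neutrophil genes 4 were tested, 0 were called and 3 were lower at an unadjusted p under 0.05. The neutrophil list summed to 5.13 to 7.38 CPM in Gent+Fos OE and to 30.8, 13.3 and 10.4 CPM in Gent replicates 1, 2 and 3. Ly6g was at or under 0.0685 CPM in every library. The most abundant neutrophil genes, Csf3r and Ltf, had log2 fold changes of -0.94 ± 0.27 and -2.60 ± 0.54. For scale, Fcgr1 itself was 27.8 to 39.8 CPM in Gent. The part of these cells in the values of Lyz2, Fcgr1 or Cd14, which they also express, was not tested.

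Microglia genes were low or shared with other cells. Of 8, 6 were tested and 0 were called, with 3 lower at an unadjusted p under 0.05. P2ry12 and Siglech were at or under 3.35 and 0.130 CPM, and the most abundant, Olfml3 and Sall1, had log2 fold changes of -0.48 ± 0.15 and 0.17 ± 0.19. Dendritic cell genes (5 of 8 tested), mast cell genes (4 of 8), T and NK cell genes (2 of 10) and B cell genes (2 of 6) gave 0 calls by edgeR, and 1, Cd79b, had an unadjusted p under 0.05. The most abundant tested genes of these lists were Itgax (0.38 ± 0.23) and Zbtb46 (0.08 ± 0.20) for dendritic cells and Tpsb2 (0.21 ± 0.26) and Cma1 (-0.28 ± 0.37) for mast cells. For lymphocytes they were Cd4 (-0.39 ± 0.29), Cd79b (-1.50 ± 0.32) and Ighm (-0.35 ± 0.62). Flt3 was at or under 0.0977 CPM in every library.

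Tissue cells of the explant gave the frame of the comparison. Endothelial genes had -0.08 as the median log2 fold change over 9 tested, mesenchymal genes -0.28 over 8, Schwann cell genes -0.20 over 8, supporting cell genes 0.42 over 9 and hair cell genes 0.16 over 10. The most abundant of each were Emcn (-0.29 ± 0.21) and Kdr (0.07 ± 0.25), Col1a2 (-0.21 ± 0.20) and Col3a1 (0.27 ± 0.17), Sox10 (-0.09 ± 0.24) and Pmp22 (-0.54 ± 0.12), Gjb2 (-0.03 ± 0.18) and Otog, and Otof (0.23 ± 0.20) and Myo6 (0.47 ± 0.18). Otog, which encodes otogelin of the otolithic membrane, was the 1 call among them. It read 1205, 1354, 870 and 830 CPM against 445, 431 and 466 CPM and rose by 1.25 ± 0.18 on the log2 scale (edgeR adjusted p = 0.00851). The melanocyte genes Dct, Trpm1 and Tyrp1 fell by 1.40, 1.96 and 1.87 (edgeR adjusted p = 0.00404, 0.00725 and 0.00837), and Pmel had -1.33 ± 0.21. Over all these lists 5 genes were called lower and 1 higher. Without Gent+Fos OE replicate 1 or 3 or Gent replicate 3 there were 0 lower, and without Gent+Fos OE replicate 2 or 4 there were 1 and 2. Without any 1 library other than Gent replicate 2 there were 0 higher, so Otog lost its call, and without that replicate there were 2. The part of a shift in the makeup of the explants in the macrophage values was not tested.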

How the data were processed

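RNA was sequenced from pools of utricle explants, 4 Gent+Fos OE and 3 Gent libraries, grouped by the labels. The authors deposited raw counts, whole numbers of reads for each gene, made with featureCounts 2.0.6 on mm10 per the file headers, which show no strand setting, no counting of reads that map to several places or hit several genes, and each read of a pair counted on its own. The submitters' processing notes name Trim Galore 0.6.10, HISAT2 2.2.1 and DESeq2 1.34.0, whereas the study's methods name mm39.

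The 36 genes and all lists were chosen with earlier results of these data known. Symbols of 24493 genes were matched by identifier and place between GENCODE vM39 and RefSeq (GRCm38.p6). The test was that of edgeR 4.0.16, run in R 4.3.3 (filterByExpr, TMM, quasi-likelihood F-test, Benjamini-Hochberg over 17155 genes, call at adjusted p under 0.01 and absolute log2 fold change over 0.25), tested on simulated data. Limma-voom (limma 3.58.1), DESeq2 1.42.0, other normalization, filters, a correction for gene length (loess span 0.3), a replicate block and leaving out each library were alternatives. CPM and RPKM are TMM-normalized, log2 CPM has a prior count of 2, and ± is SD or, after a log2 fold change, SE. Figures used Python 3.11.15, pandas 2.3.3 and matplotlib 3.10.9.

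Per-library values are given for the 2 genes of each of the 3 role lists with the highest RPKM in Gent, for genes called, and for further macrophage genes that illustrate their role, which were picked after their values were seen. Counts at other p limits keep the limit on the fold change. Of each other list the called genes (at most 3) and the 2 most abundant in Gent are named, and others named beside them were likewise picked afterwards. The labels call the libraries biological replicates, and with totals of 27879889 to 34335214 counts the spread between libraries sets the precision. The gene Clec7a of 1 list was not analysed here.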

Additional observations from a re-analysis of the deposited data

Results flagged for a closer look

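Among the 36 macrophage genes, 2 had a Gent+Fos OE library far from the other 3, by Dixon's ratio of the gap to the range of the group. Mrc1 was 116 CPM in Gent+Fos OE replicate 4 and 83.2 to 88.1 CPM in the other libraries of the group. Pf4 was 13.9 CPM in that replicate and 11 to 11.3 CPM in the others. Gent spanned 46.5 to 121 CPM for Mrc1 and 17.9 to 27.8 CPM for Pf4. Chance alone gives such a gap in about 1 in 20 groups, and replicate 4 was the highest Gent+Fos OE library for 30 of the 36 genes.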

How the results depend on the processing

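Medians of the macrophage genes and of the 3 role lists moved by less than the spread between libraries in all 15 refits each. The refits share the same counts and most of the libraries, so a move beyond that spread was unlikely from the start. The median over the 36 genes ran from -0.68 to -0.44, and 29 to 34 genes had a negative sign. The median of resident and scavenger genes ran from -0.30 to 0.07, being above 0 without Gent+Fos OE replicate 2 (0.07), without Gent replicate 3 (0.02) and with at least 10 counts in every library (0.05).

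Counts of calls moved by more than 1.5 times in most alternatives, in the order all genes lower, all genes higher, macrophage genes lower, other list genes lower and other list genes higher. The main counts were 48, 23, 2, 5 and 1. DESeq2 gave 327, 273, 12, 32 and 3. No filter on low counts gave 141, 63, 4, 15 and 2. The gene length correction gave 95, 35, 4, 8 and 0. The replicate block gave 0 in all 5. The replicate block with the gene length correction gave 31 for all genes lower, 0 for macrophage genes and 0 for other list genes higher. Limma-voom gave 1 macrophage gene, and a minimum of 10 counts in every library gave 0 other list genes higher. Leaving out each library gave 3 to 93, 2 to 45, 0 to 2, 0 to 8 and 0 to 2. With adjusted p under 0.05 there were 205 genes and 5 macrophage genes lower, and with unadjusted p under 0.05 there were 2298 and 22. The difference between the identity and activation medians (-0.16) was -0.06 with the narrow identity list and ran from -0.19 to -0.02 on leaving out libraries, the last without Gent replicate 2. For all genes lower, the lowest count came without Gent+Fos OE replicate 3 and the highest without Gent replicate 2. The causes were not tested.

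The labels' replicate numbers did not pair the libraries: deviations of same-numbered libraries correlated at 0.06, -0.04 and 0.03, so the replicate block compares libraries that share only a number. Depth limits the values of Lyve1 and of the blood cell markers near 0 CPM.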
